A study of Mus musculus with 12 samples.

Results

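The genes described here receive, carry and break down extracellular purines. They are 10 genes, P2ry1, P2rx4, P2rx7, Entpd1, Nt5e, Slc29a1, Ada, Pnp, Pnp2 and Adk, each with its own probe set among the 25428 on the arrays, and all 10 were found by symbol. They were chosen by name with their log2 differences between NICD-OE-HEC and Control already known, so those differences are given as a description and without a test. The cells were liver sinusoidal endothelial cells of mice, the fenestrated capillary lining of the liver, taken from digested livers by a density gradient and magnetic beads against CD146. The NICD-OE-HEC group had 6 samples from mice that carried Clec4g-Cre as a single transgenic allele together with Rosa26-N1ICD-IRES-GFP, in which Cre activity in hepatic endothelium switches on the intracellular domain of Notch1 with a GFP reporter. The Control group had 6 samples, while the full genotype of these mice and the age and strain of both groups are not stated here. Each sample was a pool of 3 mice on its own array, so the spread between arrays is a spread between pools, and no treatment other than the alleles is named for either group.

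ATP and ADP released from cells act on P2X receptors, which are ATP-gated cation channels, and on P2Y receptors, which couple to G proteins. At the cell surface ATP and ADP are cut to AMP and then to adenosine, which is itself a signal and is taken up through nucleoside transporters. Inside the cell adenosine is either deaminated to inosine and split into hypoxanthine and a ribose phosphate, or phosphorylated back to AMP. Endothelium takes part in each of these steps, and in blood vessels the pathway is known for its effects on vascular tone, platelets and inflammation.

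All values are log2 RMA expression, a scale on which 1 unit is a doubling, and a difference is NICD-OE-HEC minus Control. The median of each array was 3.67, and a value near or below it cannot be separated from background because the table holds no detection calls. Levels of different genes are not set against each other, since each probe set has its own affinity. Arrays within a group correlated at 0.976 to 0.992. The second principal component, with 16.4% of the variance, placed NICD-OE-HEC 4 at -30.3 and Control 2 at -48.5, whereas the remaining arrays ranged from -8.51 to 22.3. Hey1, a repressor induced by Notch, averaged 7.11 ± 0.23 in NICD-OE-HEC and 4.42 ± 0.38 in Control (SD, n = 6 each). By limma with Benjamini-Hochberg adjustment over all probe sets Hey1 passed (difference 2.70, SE 0.16, adjusted p = 4.15e-08), whereas Notch1 averaged 8.87 and 8.68 (adjusted p = 0.486). Nrarp (1.04), Hes1 (0.76) and Heyl (0.50) rose as well, and Hey2 differed by 0.28 (limma adjusted p = 0.137). Heyl lost its call without NICD-OE-HEC 2, 4 or 6 or Control 3, 4 or 5 (limma adjusted p up to 0.0613 over single arrays left out). Whether the Notch1 probes match the fragment in the transgene is not known here, so that value does not check the labels.

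RefSeq promoter windows of GRCm38.p6, each reaching from 250 bases before to 50 bases after an annotated start, were found for 9 of the 10 genes, 19 windows in all, with none for Pnp2. The core of the site bound by RBPJ, the DNA partner of the Notch intracellular domain, was searched as TGGGAA on both strands. It lay in 6 of the 19 windows, belonging to 4 genes (P2rx7, Pnp, Slc29a1 and Entpd1), and in 25.6% of all 32851 windows in the table. The longer form TGTGGGAA, which holds the core within it, lay in 0 of the 19 windows and in 1.86% of all windows. The AP-1 motif TGANTCA lay in 1 window of P2rx7 and in 7.81% of all windows. The 250 upstream bases are printed for P2ry1 (chr3:61002535-61002784, plus strand) and Ada (chr2:163750240-163750489, minus strand) because these genes had the largest differences of the 10. The stretches of P2rx7 (chr5:122650133-122650382, plus strand), Slc29a1 (chr17:45599619-45599868, minus strand) and Entpd1 (chr19:40612116-40612365, plus strand) are printed because they hold the core upstream of the start. Sequences run 5′ to 3′ on the strand of the gene, and capitals mark the core.
P2ry1: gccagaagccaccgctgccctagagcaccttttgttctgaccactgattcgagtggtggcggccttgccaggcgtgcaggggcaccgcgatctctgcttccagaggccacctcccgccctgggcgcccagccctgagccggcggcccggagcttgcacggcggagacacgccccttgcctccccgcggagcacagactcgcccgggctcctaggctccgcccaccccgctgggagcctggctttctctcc
Ada: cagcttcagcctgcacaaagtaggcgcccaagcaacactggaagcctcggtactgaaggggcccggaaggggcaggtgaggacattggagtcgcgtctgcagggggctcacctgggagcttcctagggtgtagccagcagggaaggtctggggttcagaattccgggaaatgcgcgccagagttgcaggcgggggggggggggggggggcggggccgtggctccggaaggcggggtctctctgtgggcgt
P2rx7: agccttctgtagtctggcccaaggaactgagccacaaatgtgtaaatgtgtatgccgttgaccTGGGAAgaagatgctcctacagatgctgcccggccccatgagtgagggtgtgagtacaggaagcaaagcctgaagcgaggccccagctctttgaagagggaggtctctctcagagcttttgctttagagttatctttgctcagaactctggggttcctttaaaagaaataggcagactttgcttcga
Slc29a1: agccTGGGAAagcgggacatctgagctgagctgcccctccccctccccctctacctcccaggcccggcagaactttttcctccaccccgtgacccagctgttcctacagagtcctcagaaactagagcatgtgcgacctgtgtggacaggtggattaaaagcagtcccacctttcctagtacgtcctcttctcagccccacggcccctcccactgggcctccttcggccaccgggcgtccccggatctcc
Entpd1: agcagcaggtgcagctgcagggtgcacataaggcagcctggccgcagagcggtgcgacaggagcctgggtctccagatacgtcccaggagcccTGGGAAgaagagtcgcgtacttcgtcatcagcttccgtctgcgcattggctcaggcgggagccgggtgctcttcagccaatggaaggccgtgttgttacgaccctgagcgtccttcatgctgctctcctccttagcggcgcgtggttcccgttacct
The P2ry1 and Ada windows held neither form of the RBPJ motif nor the AP-1 motif. In the printed P2rx7 stretch the first base of the core stood at -187 from the start, in Slc29a1 at -246 and in Entpd1 at -157. Several of these genes have more than 1 annotated start, with windows numbered here 5′ to 3′ along the gene. The P2rx7 core lay in window 2, and window 1 held none. For Slc29a1, windows 1, 2 and 5 held the core and windows 3, 4, 6, 7 and 8 did not. For Entpd1, window 1 held it and window 2 did not. These are matches of letters and not measured binding. The genes with the core included P2rx7 and Slc29a1, which were lower in NICD-OE-HEC, and Entpd1, which was higher.

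Of the 10 genes 8 were lower and 2 higher in NICD-OE-HEC, with a median difference of -0.90 against -0.01 over all probe sets. In the limma fit 9 of the 10 had an adjusted p under 0.05 (2 higher and 7 lower), where 10.5% of all probe sets did (4.89% higher and 5.59% lower). The arrays of the groups did not overlap for 6 genes, all lower in NICD-OE-HEC, where 6.68% of all probe sets did not overlap (2.98% higher and 3.7% lower). Nothing is read from these counts, because the genes were chosen with this comparison known. The 6 were P2ry1, Ada, Pnp2, P2rx4, P2rx7 and Slc29a1. Leaving out NICD-OE-HEC 4 and Control 2 could not make them overlap, since groups apart on all arrays stay apart on fewer.

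**Figure D1:**
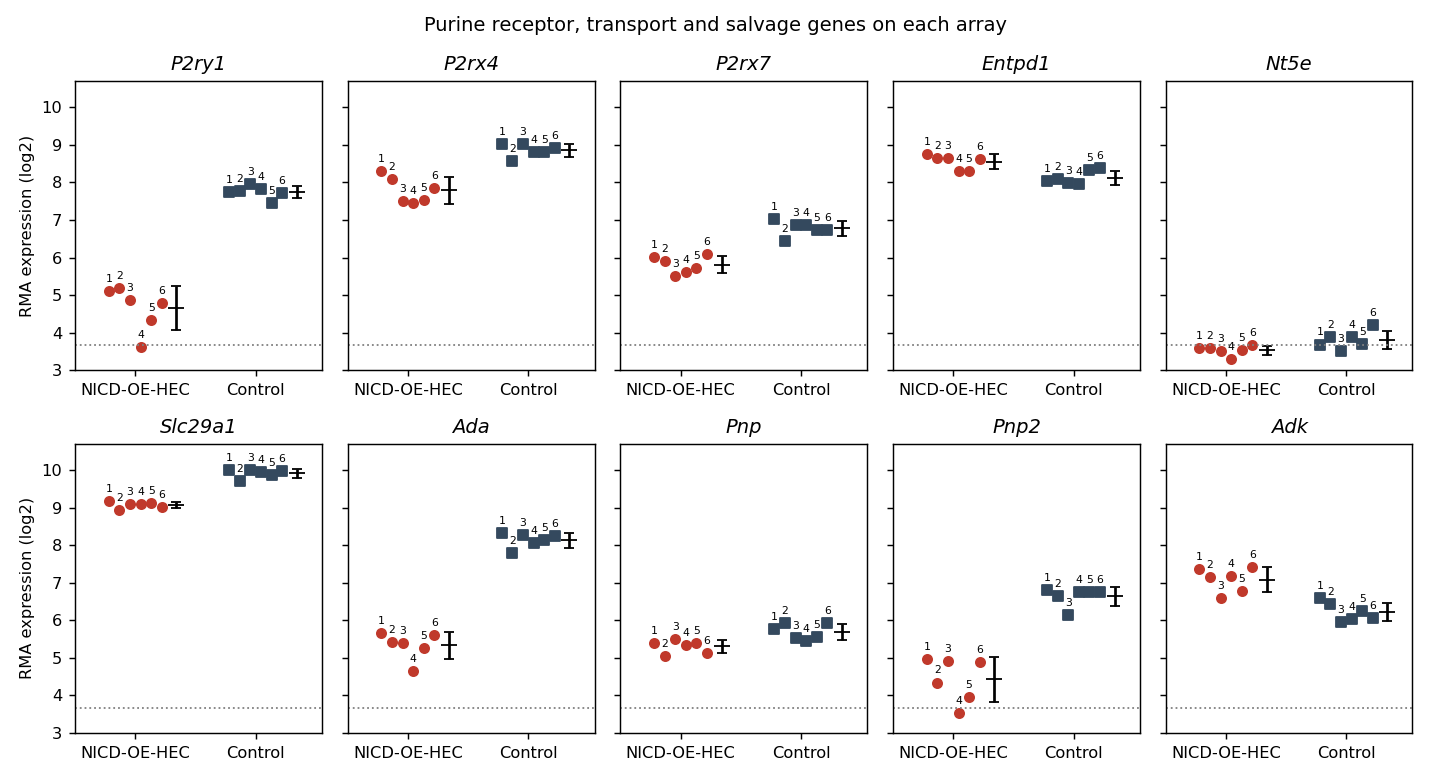
Each panel plots log2 RMA expression of 1 gene, with NICD-OE-HEC (circles) on the left and Control (squares) on the right; numbers are replicates, bars are means ± SD (n = 6 each) and the dotted line is the array median of 3.67. P2ry1, Ada and Pnp2 show the widest gaps between groups, while the Adk, Entpd1, Pnp and Nt5e groups overlap.

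Among the receptors P2ry1 (18441_at) stood out. It encodes P2Y1, an ADP receptor coupled to calcium release that endothelium and platelets use. P2ry1 lay at 3.62, 4.82 and 5.18 (lowest, median and highest array) in NICD-OE-HEC, against 7.44, 7.76 and 7.96 in Control. All NICD-OE-HEC arrays were below all Control arrays, with 2.26 log2 units between the nearest arrays of the groups. The means were 4.64 ± 0.59 and 7.75 ± 0.17 (SD, n = 6 each), a difference of -3.10 (SE 0.22), or 8.58-fold lower on the linear scale. P2ry1 stood at rank 5 from the lowest difference of all 25428 probe sets. NICD-OE-HEC 4 was the lowest array and fell just under the array median, so the size of the fold is not exact there. In these bulk samples fewer cells of a type and less RNA per cell cannot be told apart. Without NICD-OE-HEC 4 the difference was -2.90, and without that array and Control 2 it was -2.89.

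The ATP-gated channels of the set were lower as well, by less. P2rx4 (18438_at) encodes the channel through which endothelial cells answer ATP released under flow. P2rx4 lay at 7.45, 7.70 and 8.32 (lowest, median and highest) in NICD-OE-HEC, against 8.56, 8.87 and 9.03 in Control. The groups did not overlap, the nearest arrays being NICD-OE-HEC 1 and Control 2 with 0.24 between them. The means of P2rx4 were 7.79 ± 0.36 and 8.86 ± 0.17 (SD, n = 6 each), a difference of -1.06 (SE 0.15), 2.09-fold lower.

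P2rx7 (18439_at) encodes the channel that opens at high ATP and feeds inflammasome activation in immune cells. P2rx7 lay at 5.51, 5.82 and 6.09 in NICD-OE-HEC, against 6.44, 6.80 and 7.02 in Control, again without overlap and with a gap of 0.35. Its means were 5.81 ± 0.23 and 6.78 ± 0.20 (SD, n = 6 each), a difference of -0.97 (SE 0.12), 1.96-fold lower. In the RefSeq gene table P2rx7 and P2rx4 neighbour each other, with 0 protein-coding genes between them. The lowest Control array was Control 2 for both genes.

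The surface enzymes that turn ATP into adenosine differed little in size. Entpd1 (12495_at) encodes CD39, which cuts ATP and ADP to AMP. Entpd1 lay at 8.30, 8.64 and 8.77 in NICD-OE-HEC, against 7.96, 8.05 and 8.39 in Control. The groups overlapped, since Control 5 and Control 6 reached above the lowest NICD-OE-HEC arrays. The means were 8.55 ± 0.20 and 8.13 ± 0.18 (SD, n = 6 each), a difference of 0.42 (SE 0.11), 1.34-fold higher.

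Nt5e (23959_at) encodes CD73, which cuts AMP to adenosine. Nt5e lay at 3.30, 3.56 and 3.66 in NICD-OE-HEC, against 3.50, 3.79 and 4.20 in Control. Every NICD-OE-HEC array was below the array median of 3.67, and Control values lay around it. The difference of -0.28 (SE 0.11) therefore lies within the range of possible background.

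Slc29a1 (63959_at) encodes ENT1, which carries adenosine across the plasma membrane in both directions. Slc29a1 lay at 8.95, 9.10 and 9.16 in NICD-OE-HEC, against 9.70, 9.96 and 9.99 in Control. The groups did not overlap, and the spread within each was the smallest of the 10 genes. The means were 9.07 ± 0.08 and 9.91 ± 0.11 (SD, n = 6 each), a difference of -0.84 (SE 0.08), 1.79-fold lower.

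Among the enzymes inside the cell Ada (11486_at) had the largest difference. It encodes adenosine deaminase, which converts adenosine to inosine. Ada lay at 4.64, 5.41 and 5.65 in NICD-OE-HEC, against 7.78, 8.19 and 8.32 in Control. The gap between the nearest arrays was 2.13 log2 units, and the lowest arrays were NICD-OE-HEC 4 and Control 2. The means were 5.33 ± 0.37 and 8.13 ± 0.20 (SD, n = 6 each), a difference of -2.80 (SE 0.15), 6.98-fold lower and at rank 6 from the lowest of all probe sets. Without NICD-OE-HEC 4 and Control 2 it was -2.74.

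Purine nucleoside phosphorylase, which splits inosine and guanosine, is encoded in the mouse by Pnp and by its paralog Pnp2, next to each other in the RefSeq gene table. Pnp2 (667034_at) lay at 3.53, 4.61 and 4.96 in NICD-OE-HEC, against 6.14, 6.75 and 6.80 in Control. The groups were 1.18 apart at their nearest arrays, with NICD-OE-HEC 4 under the array median and Control 3 below the other Control arrays. The means of Pnp2 were 4.43 ± 0.59 and 6.64 ± 0.25 (SD, n = 6 each), a difference of -2.21 (SE 0.23), 4.63-fold lower and at rank 19 from the lowest.

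Pnp (18950_at) lay at 5.05, 5.36 and 5.51 in NICD-OE-HEC, against 5.44, 5.66 and 5.93 in Control. Its groups overlapped, and the means of 5.30 ± 0.18 and 5.69 ± 0.21 (SD, n = 6 each) differed by -0.39 (SE 0.11), 1.31-fold lower. The difference between the paralogs was not tested. Pnp and Pnp2 are similar in sequence, and how far each probe set also binds the other transcript is not known here, so both values are uncertain as measures of a single gene.

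Adk (11534_at) encodes adenosine kinase, which returns adenosine to AMP. Adk lay at 6.60, 7.16 and 7.42 in NICD-OE-HEC, against 5.95, 6.15 and 6.60 in Control. The groups touched, NICD-OE-HEC 3 and Control 1 both standing at 6.60. The means were 7.08 ± 0.32 and 6.22 ± 0.25 (SD, n = 6 each), a difference of 0.86 (SE 0.15), 1.82-fold higher. Of the enzymes that use adenosine inside the cell, the deaminase was thus lower and the kinase higher in NICD-OE-HEC, as a description of this comparison. Hepatocyte markers were also higher in NICD-OE-HEC (4 of 9 called, all higher), with summed linear levels of 2239 to 5814 against 1140 to 2753 in Control, and their part in the Adk difference was not tested.

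**Figure D2:**
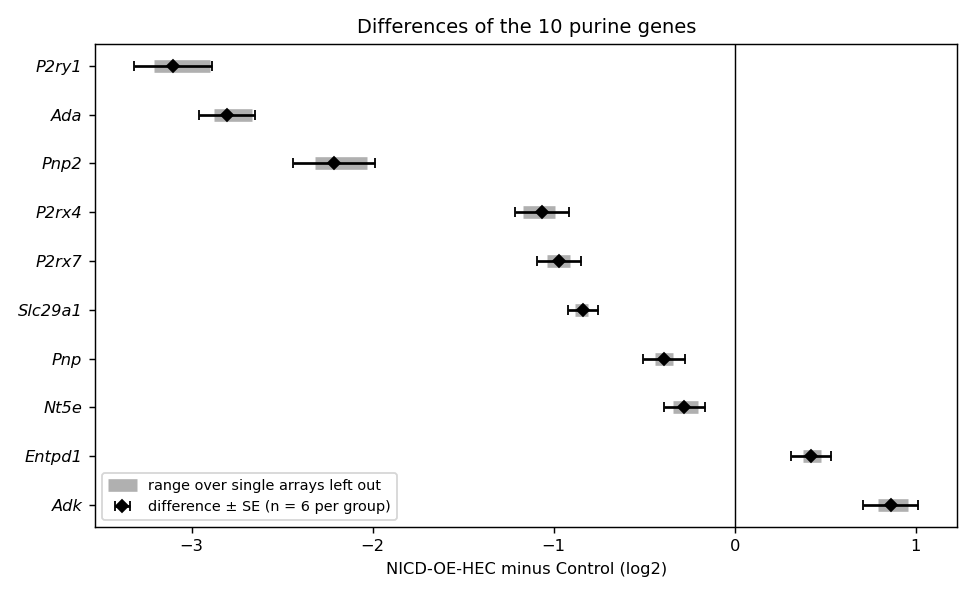
The plot gives the difference, NICD-OE-HEC minus Control in log2 units, of each of the 10 genes, with diamonds and bars for the difference ± SE (n = 6 per group) and grey bands for the range when single arrays are left out. The band of P2ry1 runs from -3.21 to -2.90 and that of Ada from -2.87 to -2.67, and no band crosses 0.

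Arrays of a group differed among themselves in these genes. In NICD-OE-HEC the SD was 0.59 for P2ry1 and 0.59 for Pnp2, against 0.17 and 0.25 in Control. NICD-OE-HEC 4 was the lowest array of its group for 6 of the 10 genes (P2ry1, P2rx4, Ada, Pnp2, Entpd1 and Nt5e), at -1.03 from the group mean for P2ry1, -0.69 for Ada and -0.90 for Pnp2. Control 2 was the lowest of its group for 4 genes (P2rx4, P2rx7, Ada and Slc29a1). NICD-OE-HEC 1 was the highest of its group for 5 genes and Control 1 for 6.

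**Figure D3:**
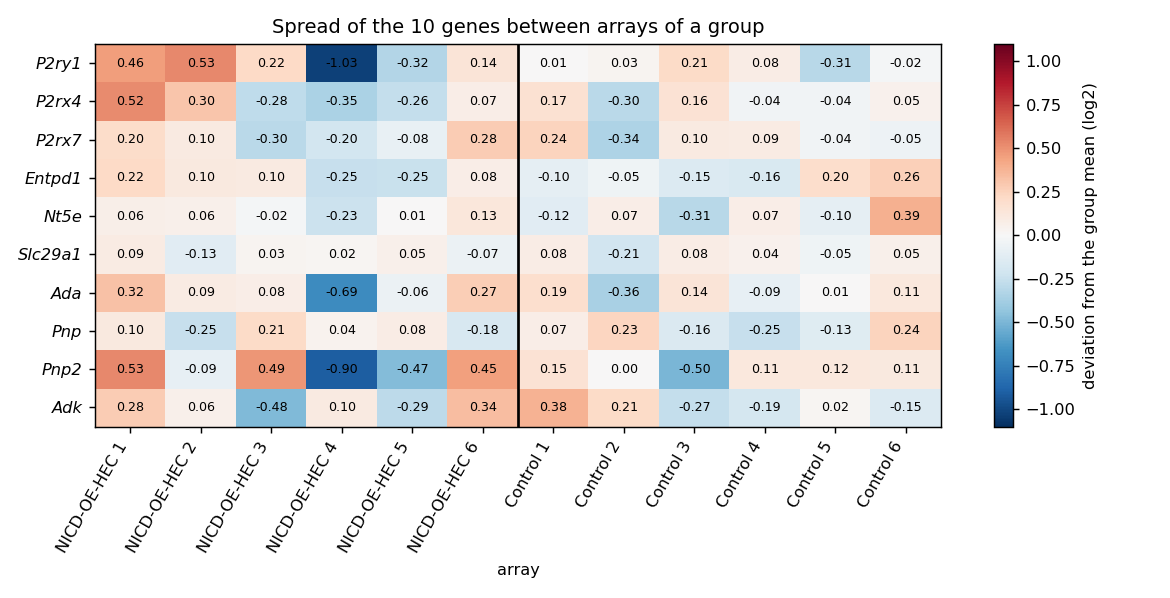
Rows are the 10 genes and columns the arrays, NICD-OE-HEC left of Control; colour and number give the deviation of an array from the mean of its group in log2 units. NICD-OE-HEC 4 carries the deepest values, -1.03 for P2ry1 and -0.90 for Pnp2, while Slc29a1 stays within -0.21 and 0.09 on every array.

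The deviations from the group means do not use the difference by which the genes were chosen, and they were compared between genes over the 12 arrays. Of 45 pairs 0 passed Benjamini-Hochberg adjustment by a two-sided permutation test within groups, either by Pearson's r or by Spearman's rho, while 7 by r and 3 by rho had an unadjusted p under 0.05. The closest pair was P2rx4 and P2rx7, with r = 0.803 (permutation p = 0.00523, adjusted p = 0.150) and rho = 0.853 (permutation p = 0.00308, adjusted p = 0.0520). Its r was 0.802 within NICD-OE-HEC, 0.898 within Control and 0.799 without the 2 arrays farthest from the median. These 2 arrays are picked by the deviations of the first-named gene of a pair alone. P2rx4 and Ada gave r = 0.747 (permutation p = 0.00948, adjusted p = 0.150) and rho = 0.846 (permutation p = 0.00203, adjusted p = 0.0520), with r at 0.656 without the 2 farthest arrays, 0.688 within NICD-OE-HEC and 0.975 within Control. P2ry1 and Ada gave r = 0.773 (permutation p = 0.0254, adjusted p = 0.163) and rho = 0.538 (permutation p = 0.108, adjusted p = 0.538). That r was 0.911 within NICD-OE-HEC but 0.0525 within Control. It was 0.481 without the 2 arrays farthest for P2ry1, so it rests in part on those arrays.

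Over 11144 named genes with both group means above the array median, the deviations most like those of P2ry1 belonged to Ctsf (r = 0.938 over 12 arrays) and Ano10 (0.937). For Ada they were Fut11 (0.953) and Nrp2 (0.949), for P2rx4 Scpep1 (0.954) and Pgap1 (0.943), and for P2rx7 Fzd7 (0.942) and Sfmbt1 (0.923). For Pnp2 they were Rps23 (0.921) and Arap2 (0.895), for Slc29a1 Pdia4 (0.931) and Trim39 (0.922), and for Adk Rgn (0.874) and Nipsnap1 (0.847). Those of Entpd1 were Cd7 (0.845) and Poll (0.845), those of Nt5e Actg2 (0.837) and Fbxo36 (0.834), and those of Pnp Serp2 (0.823) and Srrm4 (0.808). These r are the highest of many and describe arrays that share their deviations across genes. Without NICD-OE-HEC 4 and Control 2 the r of the same pairs ran from 0.755 (Ada with Fut11) to 0.934 (P2rx4 with Pgap1), and it was higher than over all arrays for 4 of them, among them Adk with Nipsnap1 (0.919) and Pnp with Serp2 (0.883).

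Genes of the same pathway outside the 10 moved in both directions. Of 78 measured in 9 lists, 12 rose and 6 fell in NICD-OE-HEC, 23.1% against 10.5% of all probe sets, with a median difference of 0.03 against -0.01 over all probe sets. Nothing is read from this share, because the lists were chosen with earlier results of these data known. Both group means of 20 of the 78 lay below the array median. In the P2Y list 1 of 7 rose and 0 fell, with a median of 0.23. It was P2ry6, a receptor for UDP, at 5.80, 6.41 and 6.68 (lowest, median and highest) in NICD-OE-HEC, against 5.04, 5.34 and 6.03 in Control, with overlapping groups (difference 0.90, SE 0.18, limma adjusted p = 0.00421). In the P2X list 0 of 5 were called by limma, and the largest differences were P2rx5 (-0.29, adjusted p = 0.322) and P2rx1 (0.26, adjusted p = 0.290). P2rx5 was -0.17 without Control 2 (limma adjusted p = 0.501), and P2rx1 was 0.15 without both Control 2 and NICD-OE-HEC 4. Of the adenosine receptors Adora3 alone was analysed, with both means below the array median (2.48 and 2.61).

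The nucleotide-hydrolysing ectoenzymes split by gene, with 3 of 11 higher and 2 lower and a median of 0.14. Entpd5, a nucleoside diphosphatase of the endoplasmic reticulum, fell with no overlap, at 5.90, 6.16 and 6.45 in NICD-OE-HEC against 6.69, 6.92 and 7.08 in Control (difference -0.74, SE 0.11, limma adjusted p = 2.24e-04). Bst1, an ADP-ribosyl cyclase (0.79, limma adjusted p = 0.0187), Enpp3, a nucleotide pyrophosphatase (0.49, adjusted p = 0.00537), and Entpd2, an ecto-ATPase (0.47, adjusted p = 0.00932), rose. Enpp3 ran from 3.70 to 4.17 in NICD-OE-HEC and from 3.21 to 3.67 in Control, where values lie within possible background, so the size of its rise is uncertain. Enpp4, a hydrolase of the Enpp family, fell (-0.38, limma adjusted p = 0.0294), but lost its call without NICD-OE-HEC 1, 2 or 5 or Control 2, 3 or 4 (adjusted p up to 0.0685). In the NICD-OE-HEC group the mean of Bst1 was 4.89 and in Control it was 4.10. Neutrophil markers, of which 8 of 10 rose and 0 fell, had summed linear levels of 566 to 2281 in NICD-OE-HEC against 114 to 466 in Control, and their part in Bst1 was not tested.

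ATP release genes and the other nucleoside transporters gave no call. In the list of 7 for ATP release the largest differences were Calhm2, a channel subunit (-0.75, limma adjusted p = 0.0946), and Slc17a9, the vesicular nucleotide transporter (-0.59, adjusted p = 0.0636). Slc17a9 lay at 3.93, 4.11 and 4.28 in NICD-OE-HEC, against 3.72, 4.89 and 5.18 in Control, and Control 2 was the only Control array below the NICD-OE-HEC arrays. Without Control 2 its difference was -0.79 and passed (limma adjusted p = 1.58e-04). Over single arrays left out Calhm2 ran from -0.87 without NICD-OE-HEC 1 (limma adjusted p = 0.0497), the only such fit in which it passed, to -0.49 without NICD-OE-HEC 4 (adjusted p = 0.104), and its adjusted p reached 0.181 without Control 1. Of 6 nucleoside transporters the largest differences were Slc29a3 (-0.37, adjusted p = 0.334) and Slc28a1 (-0.22, adjusted p = 0.292). Slc29a3 was -0.20 without NICD-OE-HEC 4 and -0.49 without Control 2, not called in either fit (limma adjusted p = 0.566 and 0.137). The arrays of both groups overlapped for all 6.

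Purine salvage and breakdown enzymes gave 4 rises and 2 falls among 22, with a median of 0.01. Uox, urate oxidase, lay at 6.62, 7.37 and 8.55 in NICD-OE-HEC, against 4.85, 5.53 and 6.93 in Control, with overlap (difference 1.85, SE 0.34, limma adjusted p = 0.00199). Gda, guanine deaminase, lay at 5.01, 6.00 and 6.62 in NICD-OE-HEC, against 3.38, 3.77 and 5.37 in Control, where values reach background (difference 1.83, SE 0.34, limma adjusted p = 0.00220). Uox is a hepatocyte enzyme, and 4 of 9 hepatocyte markers rose and 0 fell; the part of hepatocyte RNA in Uox was not tested.

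Xdh, xanthine dehydrogenase, which makes urate, fell (-0.93, SE 0.17, limma adjusted p = 0.00227). Ampd3, an AMP deaminase, fell without overlap, at 5.01, 5.10 and 5.53 in NICD-OE-HEC against 5.90, 6.16 and 6.21 in Control (-0.88, SE 0.11, limma adjusted p = 7.28e-05). The other rises were Aprt, adenine phosphoribosyltransferase (0.83, limma adjusted p = 8.13e-04), and Ampd2, another AMP deaminase (0.42, adjusted p = 0.0125). Hprt, which salvages hypoxanthine and guanine, differed by -0.10 (SE 0.08, limma adjusted p = 0.566).

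De novo purine synthesis gave 2 rises and 0 falls among 12, with a median of 0.05. Atic, which carries out the closing steps of the route to IMP, lay at 5.84, 6.20 and 6.28 in NICD-OE-HEC, against 5.49, 5.53 and 5.66 in Control, without overlap (0.60, SE 0.09, limma adjusted p = 2.60e-04). Impdh1, which commits IMP to guanine nucleotides, rose by 0.55 (SE 0.13, limma adjusted p = 0.0117).

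Partners of P2X7 in the inflammasome gave 2 rises and 2 falls among 7. Casp1, the protease of the inflammasome, fell without overlap, at 6.49, 6.80 and 6.97 in NICD-OE-HEC against 7.23, 7.34 and 7.61 in Control (-0.60, SE 0.10, limma adjusted p = 9.22e-04). The adaptor Pycard fell by 0.42 (limma adjusted p = 0.0335), and the cytokines Il1b and Il18 rose by 1.18 and 0.97 (adjusted p = 0.0102 and 0.0294). Pycard lost its call when NICD-OE-HEC 3, 4, 5 or 6 or any Control array except 1 was left out. Il18 lost its call without NICD-OE-HEC 1, 2, 3 or 4 or Control 3, 4, 5 or 6. Neutrophil markers (8 of 10 rose) and the Kupffer cell marker Marco (1.49) were also higher, and their part in the cytokines was not tested. Marco was the only 1 of 11 Kupffer cell and macrophage markers called by limma, and 10 were not called.

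**Figure D4:**
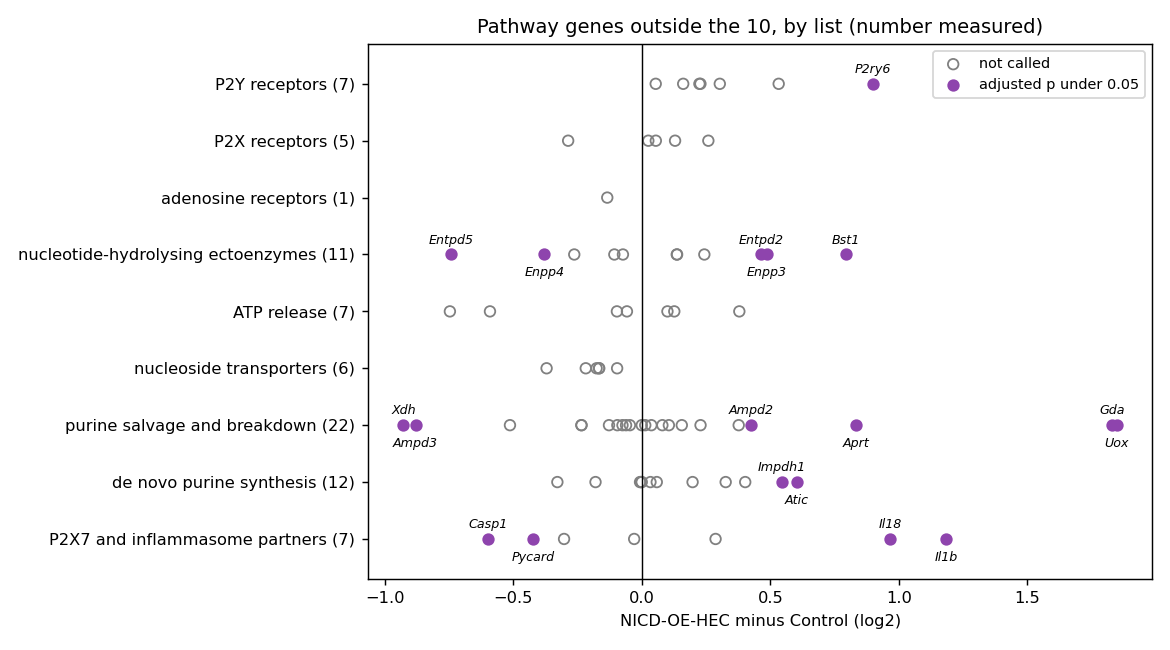
Each row is a list of pathway genes outside the 10 with the number measured, and each point a gene placed by its difference, NICD-OE-HEC minus Control in log2 units; filled, named points had a limma adjusted p under 0.05 over all probe sets. Filled points lie on both sides of 0, from -0.93 (Xdh) to 1.85 (Uox), and the P2X, adenosine receptor, ATP release and nucleoside transporter rows hold none.

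The cells carried endothelial markers, and markers of other cells differed between the groups. All 14 endothelium markers lay above the array median in both groups, with summed linear levels of 27186 to 32032 in NICD-OE-HEC and 32986 to 40386 in Control, and 2 rose and 9 fell. The genes of the list did not all move in 1 direction. Pecam1 (0.33) and Lyve1 (0.83) rose, and Cdh5 (0.006), Tie1 (0.003) and Eng (-0.29) were not called by limma. The largest falls of the list were Stab2 (-1.32) and Clec4g (-0.81). P2X4, P2X7 and P2Y6 receptors are also made by macrophages. Of 11 Kupffer cell and macrophage markers 1 rose (Marco) and 0 fell, with all 11 above the array median in both groups, a mean log2 level of 8.72 ± 0.50 in NICD-OE-HEC and 8.17 ± 0.43 in Control (SD, n = 6 each), and summed linear levels of 3070 to 8248 in NICD-OE-HEC against 2672 to 6678 in Control. The part of macrophage RNA in P2rx4, P2rx7 and P2ry6 was not tested.

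P2Y1 is also a platelet receptor. Of 8 platelet and megakaryocyte markers 3 rose and 0 fell, 2 lay below the array median in both groups, and the summed linear level was 328 to 514 in NICD-OE-HEC against 211 to 286 in Control. The rises were Itgb3 (1.08), Ppbp (1.01) and Pf4 (0.56). Gp9 (0.31), Gp6 (0.17), Treml1 (0.09), Itga2b (0.02) and Gp1bb (-0.002) were not called by limma, so the calls do not cover the whole list. The mean log2 level of the list was 4.75 ± 0.15 in NICD-OE-HEC and 4.35 ± 0.09 in Control (SD, n = 6 each), without overlap of the groups. Itgb3 averaged 7.82 and 6.74, the highest values of the list, and so weighs most in the summed level. P2ry12, the other platelet ADP receptor, averaged 5.00 in NICD-OE-HEC and 4.78 in Control and was not called (limma adjusted p = 0.523). Ada is abundant in lymphocytes, and 0 of 11 T and NK cell markers and 0 of 6 B cell markers were called by limma, with 6 of the 11 and 2 of the 6 below the array median in both groups. Summed linear levels of the T and NK cell markers were 100 to 280 in NICD-OE-HEC against 119 to 184 in Control, and of the B cell markers 63 to 138 against 76 to 97. CD73 marks fibroblasts, and stellate cell and fibroblast markers gave 3 rises and 2 falls among 12, with summed linear levels of 857 to 1139 against 714 to 1221 in Control.

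Among the remaining lists 5 of 5 cholangiocyte markers rose, erythroid markers gave 0 calls among 6 by limma, and dendritic cell markers gave 1 rise and 2 falls among 7. Early-response genes, known to be induced during tissue dissociation, gave 8 rises and 0 falls among 10, with summed linear levels of 4174 to 11603 in NICD-OE-HEC against 1691 to 4759 in Control. The part of these lists in the differences of the 10 genes was not tested.

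**Figure D5:**
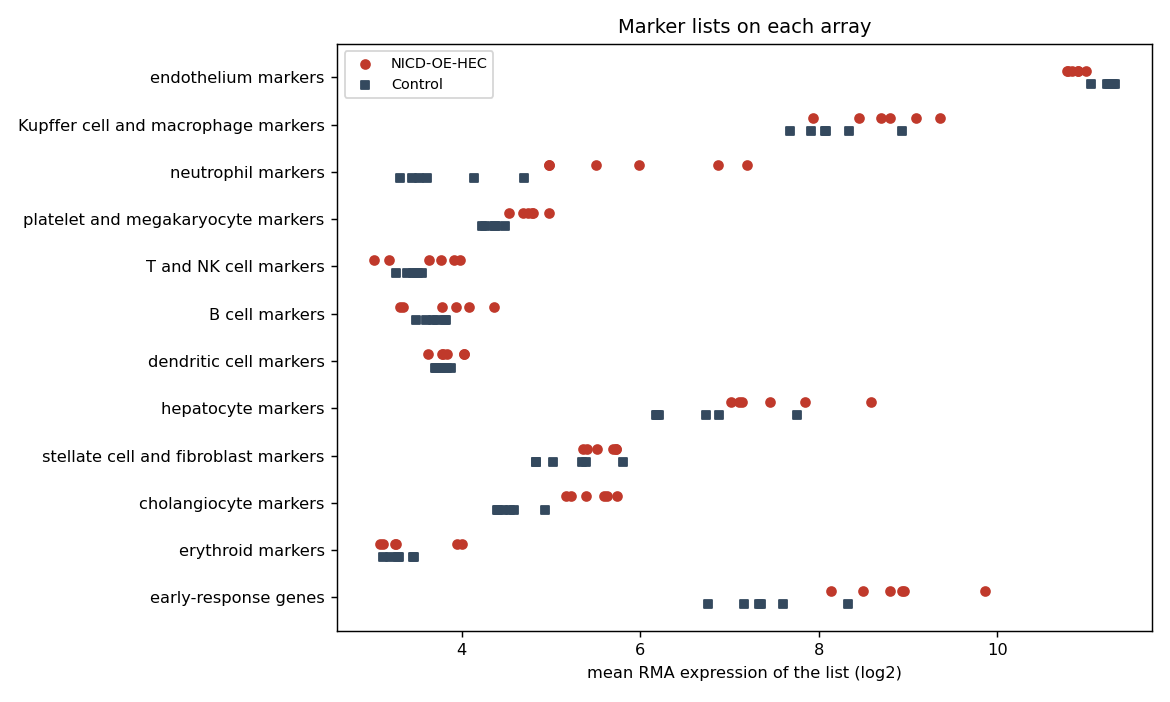
Each row is a marker list, and each point the mean log2 expression of the list on 1 array, with NICD-OE-HEC (circles) above Control (squares). The neutrophil, platelet, cholangiocyte and endothelium rows separate the groups, and the Kupffer cell, T and NK cell and B cell rows overlap.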

How the data were processed

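The authors deposited log2 values made with RMA, per the submitters' processing notes. RMA corrects background, equalizes the quantiles of the arrays and summarizes probes. Chip definition and genome build are not stated here. RMA with shared quantiles hides a change that moves most genes one way. The platform annotation gave 1 symbol to 24705 of the 25428 probe sets, several to 0 and none to 723. A symbol with 2 probe sets was represented by the brighter. Differences were fitted with limma (version 3.58.1, R version 4.3.3) from 2 group means with eBayes, without covariate or filter. P-values were two-sided and adjusted by Benjamini-Hochberg over all probe sets, with calls under 0.05. SE is limma's moderated standard error. The 6 arrays per group limit the precision.

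The 10 genes and all lists were chosen with earlier results of these data known. Named were the 10, up to 4 called genes per list by size (or the 2 largest differences), the 2 genes most like each member, Notch1 and Notch targets; other genes named, among them Enpp4, Aprt, Ampd2, Hprt, P2ry12 and Marco, were chosen after their values were seen, and their alternatives were added then. Genes without a probe set in the annotation were not analysed here. Summed linear levels add 2 to the power of each value. Pair tests used 100000 permutations within groups. On simulated arrays of 25428 probe sets, 54.5% of 55 probe sets changed by log2 0.5 were recovered. At 1 it was 94.2% of 69 and at 2 it was 100% of 76. The simulated probe sets varied independently of each other and gave 181 calls, against 2666 in the data. Of the 181 calls 5.52% were of unchanged probe sets. These recoveries are therefore not measures of the power of the real comparison. Alternatives were median centring, repeated quantile normalization, filters on the dimmest 25 or 50 percent, array weights, robust eBayes with an intensity trend, a replicate block, single arrays left out, and both arrays that stood apart left out.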

Additional observations from a re-analysis of the deposited data

Results flagged for a closer look

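A single array stood far from the other 5 of its group, by Dixon's criterion, for 4 of the 44 genes tested (the 10, the named pathway and Notch genes and Marco), tested in both groups. Of the 88 groups tested 4 were flagged. About 1 group in 20 is marked so by chance, so the flags are no more than chance would give. Pnp2 was 6.14 on Control 3, against 6.65 to 6.80 on the other Control arrays. Slc17a9 was 3.72 on Control 2, against 4.64 to 5.18 on the others. Slc29a3 was 5.44 on Control 2, against 6.05 to 6.24 on the others. Atic was 5.84 on NICD-OE-HEC 5, against 6.14 to 6.28 on the other NICD-OE-HEC arrays. Control 2 is 1 of the 2 arrays that stood apart on the second principal component.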

How the results depend on the processing

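The differences of the 10 genes kept their direction, and moved by less than 1 SD pooled over both groups, under every alternative run for them (centring, repeated quantile normalization, array weights, replicate block, single arrays left out, and both NICD-OE-HEC 4 and Control 2 left out). Centring and repeated quantile normalization could hardly move them, because the arrays already shared their quantiles. The replicate block could not move them either, because every number occurs in both groups. Only array weights and the fits with arrays left out could therefore have changed these differences. Leaving out 1 of 6 arrays of a group, or 1 of each group, cannot move a difference by 1 pooled SD. The criterion of 1 SD was thus met in advance by those fits, and only array weights could have failed it. For genes whose groups did not overlap the direction could not change either. P2ry1 moved most in size, to -2.89 without both arrays, which is more than its SD in Control alone (0.17). The number of called probe sets stayed within 1.5 times of 2666, from 2507 with the replicate block to 3318 with array weights, and from 2107 to 2970 over single arrays left out. The P2Y count of 1 became 2 without the dimmest 50 percent of probe sets and ran from 1 to 2 over single arrays left out. The ATP release count of 0 became 1 without the dimmest 50 percent, with array weights, with the replicate block and without both arrays that stood apart, each time Slc17a9. Over single arrays left out it ran from 0 to 1, and the called gene was not the same each time. It was Calhm2, lower, without NICD-OE-HEC 1 and Slc17a9, lower, without Control 2. Without NICD-OE-HEC 3 the 1 call was a rise, of a different gene of the list. The count of P2X7 partners, 4, became 2 without both arrays and ran from 2 to 4 over single arrays. Same-numbered arrays of the groups had correlated deviations above 0.1 for 3 of 6 numbers (-0.105 to 0.219). Of the arrays 2 of 6 in NICD-OE-HEC and 3 of 6 in Control correlated best with their own number, where about 1 of 6 would by chance. Sharing of batches by number is not stated in the labels, and the fits are therefore reported without the block. With the replicate block Slc17a9 stayed at -0.59 and passed (limma adjusted p = 0.0487). The difference of Adora3, not called, ran from -0.38 to 0.02 over single arrays and changed sign without NICD-OE-HEC 4 (0.0151) and without Control 1 (4.07e-05). The count of correlated pairs was 0 by r, by rho and without both arrays (permutation test). Detection is limited by background: Nt5e in NICD-OE-HEC, and 20 of the pathway genes in both groups, lay below the array median.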
